A study of Rattus norvegicus with 2 samples.

Results

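Oligodendrocyte precursors, also called NG2 glia, were described in single-cell RNA counts of the rat hypothalamus, in 672 of the 9012 cell barcodes in the files. Hypothalamic tissue was taken from female Sprague Dawley rats at postnatal day (PND) 29. At PND 0.5 the SC300 rats had received estradiol benzoate (EB), an ester of estradiol, at 300 µg in a capsule placed under the skin. Control rats were labelled intact in the sample records, while the methods give them a capsule with oil and no EB. Each group was 1 library, made from a collagenase-dissociated pool of 3 hypothalami. The values therefore compare 2 libraries. They hold no measure of the spread between rats, no test between Control and SC300 was possible, and every interval given is an exact 95% interval that covers counting error only. A count of 0 is given instead with the level or share that 3 counts would make, which is lower than the upper end of the exact interval.

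Precursors are the dividing cells of the oligodendrocyte lineage. They carry the receptor for platelet-derived growth factor (*Pdgfra*) and the NG2 proteoglycan (*Cspg4*), receive synaptic input from neurons through glutamate and GABA receptors, and persist throughout adult life. A precursor that leaves the cycle loses *Pdgfra*, passes through a short committed stage marked by *Gpr17*, *Bmp4*, *Tcf7l2* and *Itpr2*, becomes a newly formed oligodendrocyte with *Enpp6*, and then makes myelin. In the hypothalamus these cells are known to lie close to the median eminence and the arcuate nucleus, where hormone-releasing axons end.

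A barcode was called a precursor when it held at least 200 detected genes, at most 30% of its transcript counts from mitochondrial genes, at least 1 *Pdgfra* transcript, transcripts of at least 2 of the 4 genes *Pdgfra*, *Cspg4*, *C1ql1* and *Lhfpl3*, and transcripts of at most 1 of 8 genes of other cells (*Snap25*, *Mog*, *Enpp6*, *Csf1r*, *Cldn5*, *Gja1*, *Dcn* and *Col1a1*). *Lhfpl3* was not analysed here, so the rule rested on the other 3 markers. Transcripts were counted by unique molecular identifiers (UMIs), which mark each captured molecule once. The rule found 342 precursors in Control and 330 in SC300. All of these values chose the cells and are given as a description.

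Precursors made up a similar share of both libraries. They were 8.71% of the 3928 kept barcodes in Control (interval 7.84 to 9.63%) and 8.42% of the 3919 kept barcodes in SC300 (7.57 to 9.33%), a log2 ratio of -0.05 (-0.27 to 0.17). Of the 4488 barcodes in Control, 4296 had 200 detected genes and 368 of these were over the mitochondrial limit. Of the 4524 barcodes in SC300, 4379 had 200 genes and 460 were over the limit. The libraries shared 9 barcodes, and 0 of these were precursors. The precursors held 2205514 UMIs in Control and 2339152 in SC300. The median precursor had 6428 UMIs and 2734 detected genes in Control, and 6823 UMIs and 2804.5 genes in SC300. The mitochondrial share was slightly higher in SC300, with a median of 11.9% against 10.7%.

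Levels of the markers that the rule used were fixed by the rule and describe it. All 3 analysed markers were detected in 289 Control and 285 SC300 precursors, and 53 and 45 held *Pdgfra* with 1 other. *Olig1*, a transcription factor of the lineage that the rule did not use, was found in 337 of 342 and 329 of 330 cells. *Pdgfra* reached 1391 CPM (UMIs per 1000000 UMIs, summed over the cells) in Control and 1288 CPM in SC300, and was at or below 2.7 CPM in newly formed oligodendrocytes, mature oligodendrocytes, astrocytes and microglia of both libraries, each gated by its own markers. Barcodes called precursors were left out of those gates, so low levels of the rule's markers there are partly set by the rule. *Mog*, a gene of finished myelin, stood at 2.72 and 4.28 CPM in precursors and at 2646 and 2728 CPM in mature oligodendrocytes. The 8 markers of mature oligodendrocytes summed to 39.0 CPM and 38.5 CPM in precursors, with *Mag* the most abundant of them.

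By the rule a precursor held at most 1 excluded gene. No excluded gene was detected in 192 Control and 163 SC300 precursors, and 1 was detected in 150 and 167. The one detected was most often *Snap25*, a synaptic gene of neurons, found in 105 and 117 cells, with 135 and 179 UMIs in all. *Dcn* and *Col1a1*, genes of fibroblasts, had 0 UMIs in Control, and 1 and 0 in SC300. *Csf1r* had 3 UMIs in Control and 66 in SC300, of which 32 were in 1 cell. *Gja1* had 76 and 95 UMIs, with up to 45 and 36 in a cell, and *Enpp6* had 22 and 40. Barcodes just inside the rule, with *Pdgfra* and 1 other marker, had a *Pdgfra* level of 840.5 CPM in Control and 692.8 CPM in SC300. Barcodes just outside it, with *Pdgfra* alone, numbered 17 and 23, and their *Pdgfra* level was 88.6 and 58.9 CPM.

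Few precursors held many UMIs of another cell type's marker list. Barcodes with 20 or more UMIs of 1 marker list of another cell type numbered 3 of 342 in Control, all by the astrocyte list, and 10 of 330 in SC300. In SC300 the lists were those of astrocytes (4 cells), mural cells (3), microglia (2), neurons (2), fibroblasts (1) and ependymal cells or tanycytes (1). These mixed barcodes were kept. Of the 52 named genes past 1.5-fold, 33 were still past it without them, and the genes that were not are given with their values without them.

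Few genes stood apart between precursors of Control and SC300. Of 7984 genes with at least 50 UMIs in the precursors of both libraries summed, 230 (2.88%) were at least 1.5-fold higher in SC300 and 166 (2.08%) at least 1.5-fold lower. The counting interval lay off 0 for 158 of the higher and 130 of the lower genes. The median log2 ratio of SC300 over Control was -0.01. The middle of the distribution was narrow, with 5% of genes below -0.44 and 5% above 0.46. Without the mixed barcodes the counts were 196 higher and 177 lower, and with no excluded gene detected, where fewer genes had 50 UMIs, they were 153 higher and 196 lower. The counts given for each gene list stand beside these shares, and since most lists hold few genes with 50 UMIs, 1 or 2 members past the fold do not set a list apart.

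**Figure D1:**
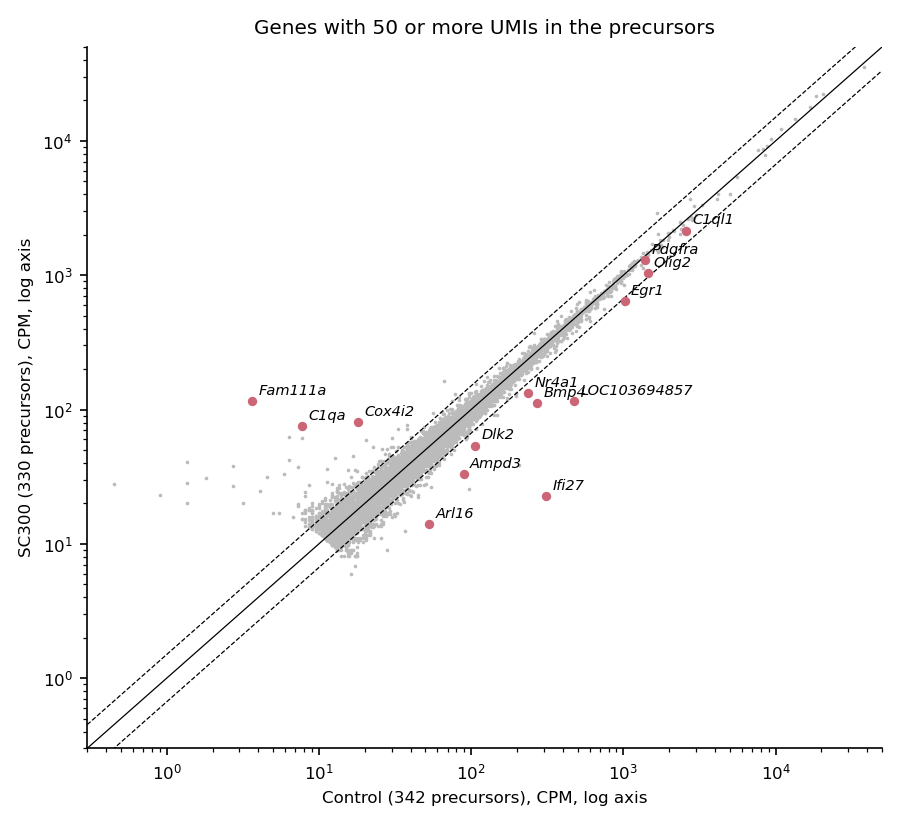
Level of each of 7984 genes in the summed precursors of Control (x axis, CPM, log scale) and SC300 (y axis, CPM, log scale), 1 point a gene. The solid line marks equal levels and the dashed lines a 1.5-fold difference. *Ifi27* and *Bmp4* lie below the lines and *Fam111a* and *Cox4i2* above them, while *Pdgfra*, *C1ql1* and *Olig2* lie between the lines.

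Precursor identity genes lay within 1.5-fold between the libraries. Of 20 such genes, all had 50 UMIs and 0 passed 1.5-fold in either direction, with a median log2 ratio of -0.07. Over all genes 2.88% were past the fold higher and 2.08% lower, so 0 of 20 does not set the list apart. *Olig1* stood at 2986 CPM in 337 Control cells and 2797 CPM in 329 SC300 cells, a log2 ratio of -0.09 (-0.14 to -0.04). *Ptprz1*, a receptor phosphatase that binds pleiotrophin, stood at 1727 and 1628 CPM. *Cspg4* had 908 and 898 UMIs, and *C1ql1*, a secreted synapse-related protein, had 5667 and 5025, log2 ratios of -0.10 (-0.24 to 0.03) and -0.26 (-0.31 to -0.20). The rule used *Cspg4* and *C1ql1*, so their values describe the rule. *Olig2*, the partner of *Olig1* in specifying the lineage, had the lowest ratio of the list. It stood at 1441 CPM (1392 to 1492) in Control and 1039 CPM (998 to 1081) in SC300, a log2 ratio of -0.47 (-0.55 to -0.40) that stayed between -0.57 and -0.33 over all alternatives. In newly formed and mature oligodendrocytes the *Olig2* ratio was -0.09 and -0.14.

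Genes that set precursors apart from all other kept barcodes were named by the smaller of the ratios in both libraries. *Pdgfra* led with a level 110-fold above the other barcodes in Control and 95.8-fold in SC300. *Sapcd2* was 83.2-fold and 81.3-fold above them, *Otos* 72.6-fold and 69.7-fold, *Pmel* 77.8-fold and 65.1-fold, and *Col5a3*, a collagen chain, 67.5-fold and 55.8-fold. *Nxph1*, a neurexin ligand, was 31.4-fold and 40.2-fold above them. *Tmem255b*, *Vxn*, *Plppr1*, *Chst5*, *Emid1*, *Pcdh15*, *Fam89a*, *Chst7*, *Kcnip3*, *Megf11*, *Pstpip2*, *Myt1* and *C1ql1* were also among the 20. None of the 20 was past 1.5-fold between Control and SC300 precursors. Over all 7984 genes 2.88% were past the fold higher and 2.08% lower. Ranking by the smaller ratio also favours genes at a high level in both libraries, so this count does not set the 20 apart. These cells were chosen by *Pdgfra* and *C1ql1*, so those values describe the rule.

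**Figure D2:**
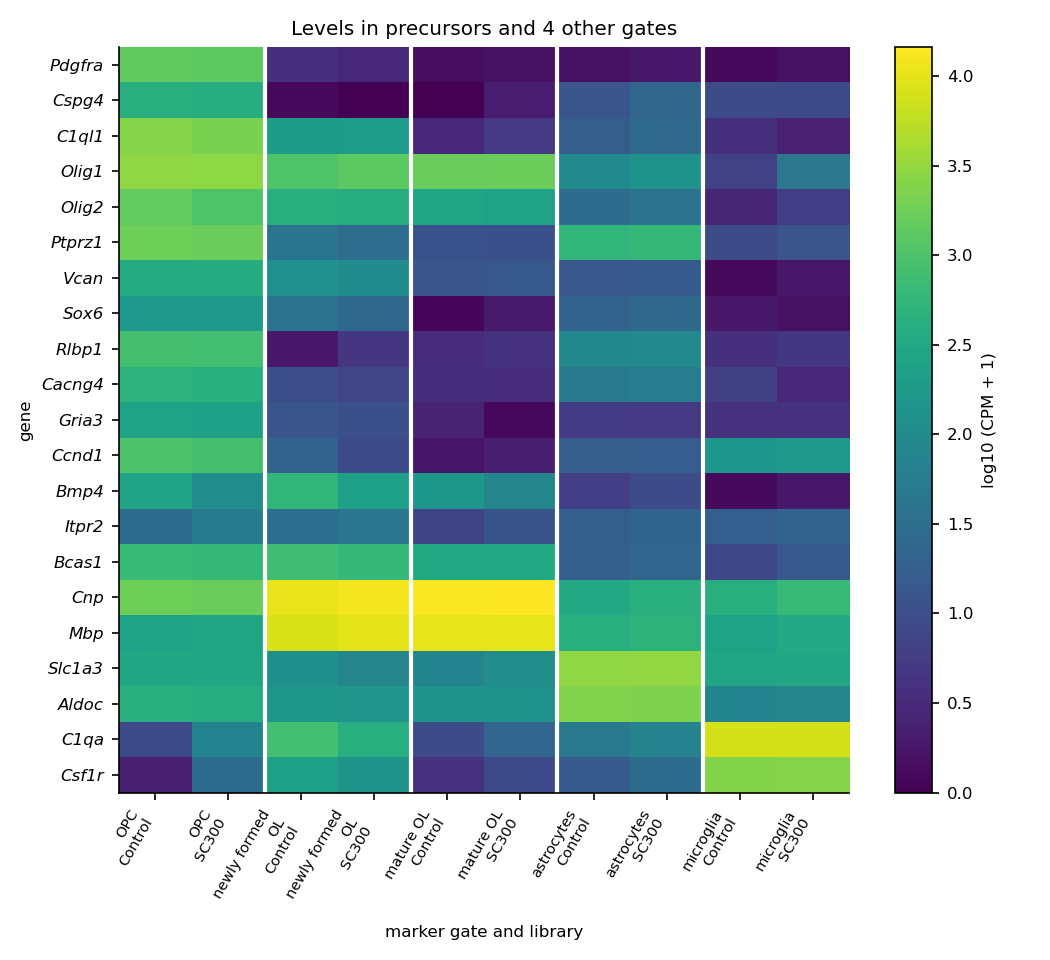
Levels of 21 genes (rows) in precursors (OPC), newly formed oligodendrocytes (OL), mature OL, astrocytes and microglia of Control and SC300 (columns), as log10 of CPM plus 1 in colour. *Pdgfra* and *Cspg4* are high in both precursor columns and near 0 in both columns of newly formed and mature OL, while *Mbp* runs the other way. Precursors were chosen by *Pdgfra* and *Cspg4* among others, and were left out of the other gates.

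The lineage order was visible in both libraries. *Ptprz1* went from 1727 CPM in Control precursors to 40.9 CPM in newly formed and 10.0 CPM in mature oligodendrocytes, and from 1628 to 29.5 and 9.22 CPM in SC300. *Ccnd1*, the cyclin that carries cells into the cycle, went from 1004 to 20.4 and 0.735 CPM in Control and from 846 to 7.48 and 1.24 CPM in SC300. *Mbp*, which compacts the myelin sheath, went the other way, from 261.2 CPM to 8150 and 10288 CPM in Control, and from 288.1 CPM to 9749 and 10102 CPM in SC300. *Bmp4*, a secreted bone morphogenetic protein, stood in Control at 270.2, 548.2 and 160.6 CPM over the same 3 stages. In SC300 *Bmp4* stood at 111.6, 239.3 and 77.3 CPM, and it was 1 of the 4 genes that gated the newly formed cells. The newly formed gate also held microglial RNA, with its microglia list at 3102 CPM in Control and 1614 CPM in SC300.

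*Bmp4* was the leading difference among genes of the lineage. Control precursors held 596 *Bmp4* UMIs in 185 of 342 cells and SC300 precursors held 261 in 116 of 330 cells. The level was 2.42-fold lower in SC300, a log2 ratio of -1.28 (-1.49 to -1.06), and the ratio lay between -1.40 and -1.21 over all alternatives. With each cell thinned to 2000 UMIs at random, so that depth was equal, 32.6% of 322 Control cells and 17.2% of 326 SC300 cells held a *Bmp4* UMI. In microglia, which held 1 and 3 *Bmp4* UMIs before thinning, no thinned cell of 415 in Control or 413 in SC300 held one. The *Bmp4* ratio was -1.20 (-1.30 to -1.09) in newly formed and -1.06 (-1.20 to -0.92) in mature oligodendrocytes, and 0.71 (0.30 to 1.14) in astrocytes, where the level was 4.79 and 7.85 CPM.

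No other gene of the commitment list with 50 UMIs was as far below Control. Of its 20 genes, 13 had 50 UMIs, 1 was past 1.5-fold higher and 1 lower, with a median of -0.10. *Itpr2*, an intracellular calcium channel, was the higher one, with 62 UMIs in 54 Control cells and 119 in 89 SC300 cells, a log2 ratio of 0.86 (0.40 to 1.32). The *Itpr2* ratio fell short of 1.5-fold with at most 10% mitochondrial UMIs, at 0.17, and lay up to 1.06 under the others. After thinning, 4.97% of Control and 9.51% of SC300 precursors held an *Itpr2* UMI, against 3.61% and 3.63% of microglia. *Tcf7l2*, a Wnt-pathway factor, had 134 and 162 UMIs, and *Gpr17*, a receptor that holds committed cells back, had 44 and 34. Their ratios were 0.19 (-0.15 to 0.53) and -0.46 (-1.15 to 0.22). *Bcas1*, *Fyn*, *Sirt2* and *Mpzl1* had ratios of -0.20, -0.16, -0.23 and -0.10.

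Of 19 myelin genes in the files, 13 had 50 UMIs, 1 was past 1.5-fold higher and 0 were lower, with a median of -0.11. *Cnp*, an enzyme that appears early in the lineage, stood at 1720 and 1595 CPM and was found in 334 and 325 cells. The higher gene was *Ptgds*, a prostaglandin synthase, with 31 and 51 UMIs. *Mbp* had 576 and 674 UMIs, *Cryab*, a small heat shock protein, 599 and 604, and *Apod*, a lipocalin, 1326 and 1074. Their ratios were 0.14, -0.07 and -0.39 for *Mbp*, *Cryab* and *Apod*.

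Cells of the committed and dividing stages were called by fixed genes. A precursor was called committed with a UMI of at least 2 of *Gpr17*, *Bmp4*, *Tcf7l2* and *Itpr2*. The call took in 98 of 342 Control cells (28.7%, 23.9 to 33.8%) and 91 of 330 SC300 cells (27.6%, 22.8 to 32.7%), a log2 ratio of -0.06 (-0.48 to 0.37). After thinning the shares were 7.14% (23 of 322 cells) and 6.44% (21 of 326). The same call gave 2.88% and 3.61% of microglia before thinning and 2 of 415 and 0 of 413 microglia after it. A count of 0 of 413 cells allows a share of up to 0.726% (3 cells). With 1 of the 4 genes required the call took in 245 Control and 218 SC300 cells, a log2 ratio of -0.12, and with *Bmp4* taken out and 1 of the other 3 genes required it took in 150 and 170 cells, a log2 ratio of 0.23.

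Committed cells, of which 12 in Control and 3 in SC300 were also dividing, were set against the 236 Control and 221 SC300 cells called neither dividing nor committed. The committed cells held more RNA of several genes of the next stage. *Sirt2*, a tubulin deacetylase found in oligodendrocytes, stood at 917.8 against 270.9 CPM in Control and 802.6 against 246.1 CPM in SC300. *Cnp* stood at 2536 against 1300 CPM in Control and 2400 against 1243 CPM in SC300. *Myrf*, the master regulator of myelin genes, stood at 56.7 against 20.4 CPM and 67.0 against 21.7 CPM. In SC300 the summed UMIs of the committed cells also held more RNA of some mural and microglial genes. *Tagln* had 71 against 1 UMIs there, *C1qa* 78 against 8 and *C1qb* 65 against 9. In Control the same genes had 2 against 2, 2 against 15 and 7 against 6 UMIs. Of the 330 SC300 precursors, 3 were mixed by the mural list and 2 by the microglia list. Without mixed barcodes, the mural list over all precursors summed to 20.8 CPM in Control and 15.2 CPM in SC300. The microglia list then summed to 101.6 and 94.7 CPM. The committed cells were not compared without the mixed barcodes. *Pdgfra* was lower in committed cells, with 1151 against 1514 CPM in Control and 1080 against 1398 CPM in SC300. Every cell was chosen by holding *Pdgfra*, so these values are a description only. Committed cells were also deeper, with a median of 7445 UMIs against 5996.5 in Control and 7944 against 6366 in SC300, so the call favours cells with more UMIs.

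Dividing cells were few in both libraries. A precursor was called dividing with a UMI of at least 3 of the 10 genes *Mki67*, *Top2a*, *Cdk1*, *Birc5*, *Ccnb1*, *Ccna2*, *Cenpf*, *Tpx2*, *Ube2c* and *Nusap1*, which encode parts of the mitotic machinery. The call took in 20 of 342 Control cells (5.85%, 3.61 to 8.89%) and 21 of 330 SC300 cells (6.36%, 3.98 to 9.56%), a log2 ratio of 0.12 (-0.83 to 1.08). In microglia it took in 0 of 451 and 1 of 443 cells, and in mature oligodendrocytes 0 of 320 and 0 of 386. The counts of 0 allow shares of up to 0.665%, 0.938% and 0.777% (3 cells). After thinning, 6 of 322 Control precursors (1.86%) and 14 of 326 SC300 precursors (4.29%) were called, a log2 ratio of 1.20 whose interval ran from -0.27 to 2.87. A precursor was called both dividing and committed in 12 Control and 3 SC300 cells, a log2 ratio of -1.95 (-4.41 to -0.06). This ratio was not taken after thinning or without *Bmp4*, a gene of the committed call that was lower in SC300. The 21 dividing SC300 cells summed to 90 *C1qa* and 73 *C1qb* UMIs, of microglial genes, but 89 and 73 of these were in 1 cell. The 20 dividing Control cells held 0 and 2.

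**Figure D3:**
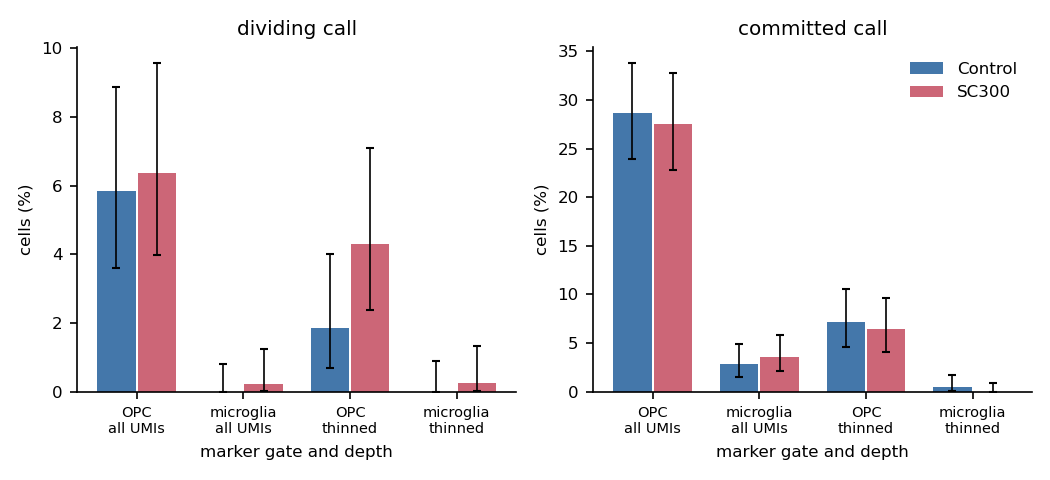
Share of cells called dividing (left) and committed (right), in percent, for precursors (OPC) and microglia of Control and SC300, with all UMIs and after thinning to 2000 UMIs a cell. Bars are shares and lines are exact 95% intervals, which overlap between Control and SC300 for both calls.

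Of the 10 genes of the dividing call, *Cenpf* alone was past 1.5-fold. *Mki67* had 96 UMIs in Control and 120 in SC300, *Top2a* 95 and 100, and *Cdk1* 151 and 141, with ratios of 0.24, -0.01 and -0.18. *Cenpf*, a kinetochore protein, had 57 UMIs in 12 Control cells and 119 in 19 SC300 cells, a log2 ratio of 0.98 (0.51 to 1.46), and 0.57 without the mixed barcodes and 0.09 with no excluded gene detected. *Ube2c* had 107 and 84 UMIs, *Birc5* 49 and 46, *Tpx2* 63 and 69, *Nusap1* 86 and 96, *Ccnb1* 27 and 37, and *Ccna2* 22 and 17. Of 30 cell cycle genes, 24 had 50 UMIs, 3 were higher and 0 lower, with a median of 0.13. Beside *Cenpf* these were *Cenpe*, with 24 and 43 UMIs, and *Mcm5*, with 34 and 55. *Mcm6*, a part of the replication helicase, had 145 and 215 UMIs in 53 and 86 cells, a ratio of 0.48 (0.17 to 0.80). *Ccnd1* stood at 1004 and 846 CPM, in 312 and 304 cells.

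Of 24 growth factor receptors, 12 had 50 UMIs and 1 was higher, *Erbb4*, with 23 and 41 UMIs and an interval of -0.02 to 1.55. *Ntrk2*, the receptor for brain-derived neurotrophic factor, had 1013 and 995 UMIs, *Ntrk3* 155 and 152, *Bmpr2* 86 and 118, and *Adgrg1*, an adhesion receptor that keeps precursors dividing, 401 and 445. Of 23 ligands, 12 had 50 UMIs, 0 were higher and 1, *Bmp4*, was lower. *Ptn* (pleiotrophin) had 5851 and 6147 UMIs, *Il33*, a nuclear alarmin, 811 and 805, *Vegfa* 337 and 345, and *Tgfa* 309 and 253. Only *Tgfa* among these 4 ligands had an interval off 0, at -0.37 (-0.62 to -0.13).

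Of 34 transmitter receptor genes, 18 had 50 UMIs, 1 was higher and 1 lower, with a median of -0.10. The AMPA receptor subunits *Gria2*, *Gria3* and *Gria4* had 1549 and 1580, 567 and 570, and 471 and 471 UMIs in Control and SC300. *Cacng4*, a subunit that travels with AMPA receptors, had 1057 and 1006 UMIs, and *Gabbr1*, a GABA-B receptor subunit, 1131 and 1099. The genes past the fold were *Gria1*, with 19 and 43 UMIs, and *Cacng7*, with 39 and 19, which were below 100 UMIs and are named after their values were seen. Of 24 channel genes, 18 had 50 UMIs, 2 were higher and 1 lower, with a median of -0.05 and a lowest ratio of -0.68. *Kcna6*, a voltage-gated potassium channel, had 41 and 67 UMIs (0.62, 0.04 to 1.22). The other higher gene was *Cacna1e*, with 22 and 43 UMIs. *Kcnd3*, *Kcnip3*, *Scn2a*, *Scn3a* and *Cacnb4* had ratios between -0.33 and 0.04.

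Adhesion genes held 1 member past the fold. Of 35 adhesion and guidance genes, 29 had 50 UMIs, 0 were higher and 1 was lower, with a median of -0.09. The lower one was *Nrcam*, a cell adhesion molecule of the node of Ranvier. It had 312 UMIs in 185 Control cells and 212 in 134 SC300 cells, a log2 ratio of -0.64 (-0.90 to -0.39). Over the alternatives the *Nrcam* ratio lay between -0.95 and -0.55, and in astrocytes it was 0.16 (0.10 to 0.23). *Nrxn2*, *Ncam1*, *Lrrtm3* and *Lsamp* had ratios of -0.31, -0.08, -0.06 and -0.08. Of 24 proteoglycan and matrix genes, 17 had 50 UMIs, 2 were higher and 0 lower, with a median of 0.06. *Vcan* had 800 and 887 UMIs, *Sdc3* 656 and 589, and *Sparcl1* 633 and 784. *Sparc*, a matrix protein of glia and vessels, had 146 UMIs in 51 cells and 383 in 44 cells, but 117 of the SC300 UMIs were in 1 cell, and its ratio of 1.31 was 0.34 without the mixed barcodes. The other higher gene, the matrix protein tenascin C (*Tnc*), had 17 and 40 UMIs.

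Genes listed as brakes on differentiation went in both directions. Of 24 such genes, 19 had 50 UMIs, 3 were higher and 2 lower, with a median of -0.21. *Hes1*, a target of Notch signalling, had 432 UMIs in 153 Control cells and 304 in 128 SC300 cells, a log2 ratio of -0.59 (-0.81 to -0.38) that fell short of 1.5-fold under most alternatives, at -0.46 without the mixed barcodes and -0.31 with no excluded gene detected. *Id4*, an inhibitor of basic helix-loop-helix factors, had 83 and 178 UMIs and a ratio of 1.02 that was 0.02 without the mixed barcodes. The other members past the fold had few UMIs, with *Id1* at 18 and 57, *Sox11* at 22 and 46 and *Sox9* at 34 and 21. *Sox2*, *Sox6*, *Sox8*, *Notch1* and *Tcf4* had ratios of -0.09, -0.04, -0.21, -0.08 and -0.23.

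Receptors for the hormone given were not detected. *Esr1*, *Esr2* and *Gper1*, the receptors for estradiol, and *Vdr* had 0 UMIs in the precursors of both libraries, which allows levels of up to 1.36 CPM in Control and 1.28 CPM in SC300 (3 UMIs). *Pgr*, the progesterone receptor, had 0 and 1 UMIs. Of 29 nuclear receptor and coregulator genes, 16 had 50 UMIs, 0 were higher and 2 lower, with a median of 0.03. The lower ones were *Nr4a1* and *Rora*, an orphan receptor of the clock, which had 33 and 22 UMIs. *Thra*, a thyroid hormone receptor, had 216 and 236 UMIs in 155 and 158 cells. *Nr2f1* had 189 and 175 UMIs, and the coregulators *Ncoa1* and *Ncor1* had 187 and 201, and 304 and 360. Of 12 genes of thyroid hormone handling, 7 had 50 UMIs and 0 passed the fold, with a median of -0.11. In that list *Klf9*, a thyroid hormone target, had 211 and 165 UMIs (-0.44, -0.74 to -0.14), and *Slc3a2*, *Slc7a5* and *Crym* had ratios of -0.11, -0.03 and -0.16.

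The early-response genes went in different directions. *Egr1* stood at 1019 CPM in 209 Control cells and 644.3 CPM in 163 SC300 cells, a log2 ratio of -0.66 (-0.76 to -0.57) that was between -0.82 and -0.46 over all alternatives, and short of 1.5-fold with no excluded gene detected or at most 10% mitochondrial UMIs. *Nr4a1*, an orphan nuclear receptor of the same class of genes, had 524 UMIs in 170 cells and 308 in 128 cells, a ratio of -0.85 (-1.06 to -0.65). *Fos* stood at 2589 and 2233 CPM, in 258 and 210 cells. *Fosb* had 994 and 1263 UMIs, *Jun* 1122 and 1473 and *Junb* 857 and 898, with ratios of 0.26, 0.31 and -0.02. *Hspa1b*, a heat shock protein, had 45 UMIs in 28 Control cells and 138 in 57 SC300 cells, a ratio of 1.53 (1.04 to 2.05). Of 23 genes of this list, 19 had 50 UMIs, 4 were higher and 3 lower, with a median of -0.02. One of the 4, *Atf3*, had 1 UMI in Control and 65 in SC300, of which 59 were in 1 cell. The others were *Klf4*, with 36 and 58 UMIs, and *Zfp36*, with 27 and 52, and *Egr2* was lower, with 44 and 28. Genes of this kind also respond to dissociation of tissue with collagenase, which both libraries went through, and the part of handling in these values was not tested.

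After thinning, 72.0% of Control and 57.1% of SC300 precursors held a *Fos* UMI, and 47.5% and 35.9% an *Egr1* UMI. *Nr4a1* was found in 30.4% and 18.1% of thinned precursors, against 0.958% and 0.519% of thinned mature oligodendrocytes, in which *Fos* was found in 8.95% and 6.49% and *Egr1* in 1.60% and 0.519%. In newly formed oligodendrocytes the *Egr1* ratio was -1.62 (-1.78 to -1.46), and in astrocytes -0.06 (-0.15 to 0.02). In the same newly formed oligodendrocytes the summed level of the 10 microglia markers was 3102 CPM in Control and 1614 CPM in SC300, and that of the early-response list 3960 and 1999 CPM. Microglia held the early-response list at 25347 and 23089 CPM, and the part of microglial RNA in the *Egr1* ratio of newly formed oligodendrocytes was not tested.

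**Figure D4:**
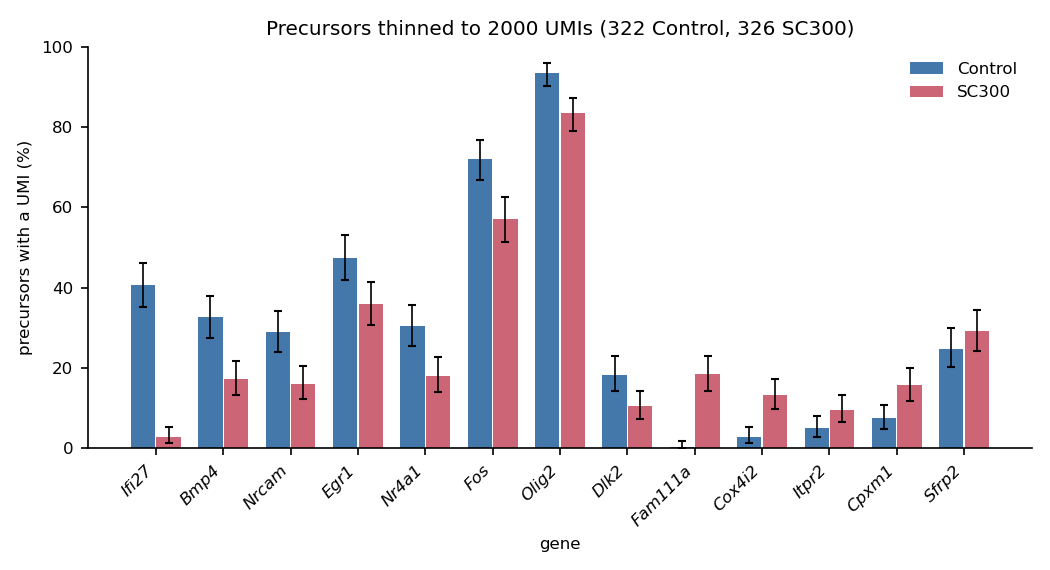
Share of precursors with a UMI of each of 13 genes after thinning to 2000 UMIs a cell, in percent, in 322 Control and 326 SC300 cells. Bars are shares and lines are exact 95% intervals, which cover counting error only. The *Ifi27* share is 40.7% in Control and 2.76% in SC300, and the *Fam111a* share 0.311% and 18.4%.

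The lowest ratio of all genes with 100 UMIs belonged to *Ifi27*, an interferon-induced gene. Control precursors held 685 UMIs in 239 of 342 cells and SC300 precursors 53 in 31 of 330 cells. The level was 310.6 CPM (288 to 335) against 22.7 CPM (17.0 to 29.6), 13.7-fold lower in SC300, a log2 ratio of -3.78 (-4.21 to -3.37). The *Ifi27* ratio was -3.64 in newly formed and -3.95 in mature oligodendrocytes, -0.99 in astrocytes and -1.31 in microglia. It stayed between -4.91 and -3.75 over all alternatives in precursors. Thinned mature oligodendrocytes held *Ifi27* in 26.5% of Control and 2.86% of SC300 cells. Apart from *B2m*, the other genes listed with *Ifi27* had few UMIs. Of 25 genes for antigen presentation and interferon response, 5 had 50 UMIs, 0 were higher and 2 lower, with a median of -0.13. *B2m* had 1259 and 1432 UMIs, *Ifit2* 71 and 69, *Psmb9* 38 and 38, and *Tap1* 36 and 21. The class I gene *RT1-A1*, under the minimum of 50 UMIs, had 30 UMIs in Control and 1 in SC300. *RT1-CE7*, *Tap2*, *Ifit1* and *Mx1* had 0 UMIs in both libraries.

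The highest ratio of genes with 100 UMIs belonged to *Fam111a*, which encodes a protease linked to DNA replication. It had 8 UMIs in 6 Control cells and 270 in 132 SC300 cells, 3.63 CPM (1.57 to 7.15) against 115.4 CPM (102 to 130), a log2 ratio of 4.99 (3.99 to 6.22). In all other kept barcodes *Fam111a* had 12 UMIs in Control and 1888 in SC300. In astrocytes it had 2 UMIs in Control and 498 in SC300, and in microglia 2 and 468. *Cox4i2*, an oxygen-responsive subunit of cytochrome c oxidase, followed among genes whose UMIs were spread over many cells. It had 40 UMIs in 34 cells and 188 in 112 cells, a ratio of 2.15 (1.65 to 2.68), and it was 1.51 in newly formed oligodendrocytes, 2.96 in mature oligodendrocytes and 1.09 in astrocytes.

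Some of the 15 lowest ratios had like ratios in other gates and some did not. *Arl16*, a small GTPase, had 117 UMIs in 91 Control cells and 33 in 33 SC300 cells (-1.91, -2.51 to -1.34), and its ratio in the 4 other gates lay between -1.88 and -1.43. *Ampd3*, an AMP deaminase, had 198 UMIs in 140 cells and 77 in 66 cells (-1.45, -1.85 to -1.06). *Retsat*, a retinol saturase, had 81 and 29 UMIs (-1.57), and *Ccng1*, a p53 target, 120 and 62 (-1.04). *Homer2*, a postsynaptic scaffold protein, had 67 and 37 UMIs. The *Ccng1* ratio was -1.24 in newly formed oligodendrocytes, -1.51 in mature oligodendrocytes and -1.06 in astrocytes. *AABR07014301.3* had 99 and 54 UMIs, with a ratio of -0.65 in astrocytes. In newly formed oligodendrocytes it had 9 and 5 UMIs, and the interval of the ratio ran from -3.28 to 0.37. *Dlk2*, a Notch ligand homologue, had 234 UMIs in 142 Control cells and 126 in 92 SC300 cells (-0.98, -1.30 to -0.66), and its ratio was -0.13 in newly formed and -0.15 in mature oligodendrocytes. *Casp4*, an inflammatory caspase, had 98 and 52 UMIs (interval of the ratio -1.51 to -0.50), against 0.27 in astrocytes and 0.08 in microglia, while newly formed oligodendrocytes held 27 and 10 UMIs. *Tmem169* had 70 and 38 UMIs, with ratios of 0.21, 0.14 and 0.31 in newly formed oligodendrocytes, mature oligodendrocytes and astrocytes. These gates held 17 and 28, 36 and 52, and 22 and 27 *Tmem169* UMIs. *Gne*, the enzyme that starts sialic acid synthesis, had 72 and 40 UMIs, with ratios of 0.28, 0.54 and 0.03 in the same gates.

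**Figure D5:**
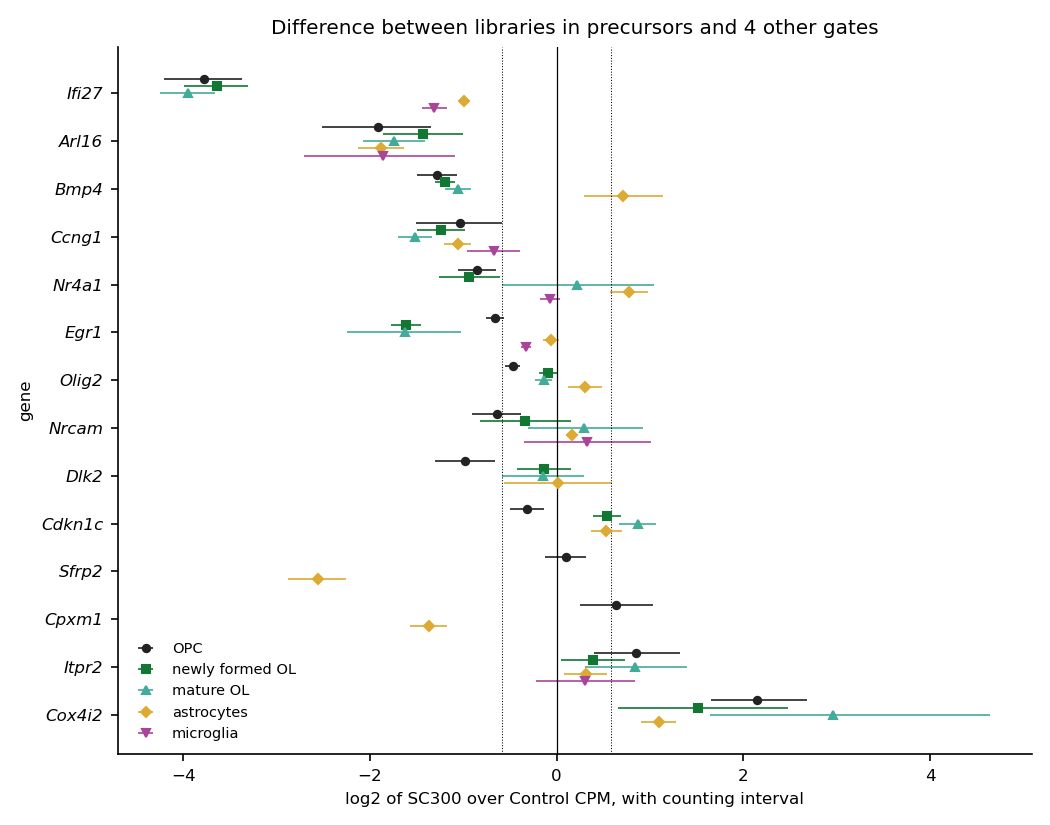
Log2 ratio of SC300 over Control CPM (x axis) for 14 genes (y axis) in precursors (OPC), newly formed OL, mature OL, astrocytes and microglia. Points are ratios with at least 50 UMIs and lines their counting intervals. *Arl16* is low in each gate drawn, *Bmp4* is low in the 3 gates of the lineage only, and *Dlk2* in precursors alone stands past the dotted 1.5-fold line.

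The largest ratios also held genes of microglia and other cells. *C1qa*, *C1qb*, *Tmem176a*, *Tmem176b*, *Aif1*, *Anxa3*, *Ccl4*, *Cd83* and *Rgs10* were among the 15 highest. *C1qa* had 17 UMIs in 14 Control cells and 176 in 17 SC300 cells, of which 89 were in 1 cell. The ratio of *C1qa* was 3.29 with all precursors and -0.19 without the mixed barcodes, and that of *C1qb* was 3.31 and -0.49. Without them the ratio was 0.50 for *Cd83*. Over the 10 microglia markers, 229 UMIs (103.8 CPM) were found in Control precursors and 852 (364 CPM) in SC300 precursors, with *Cx3cr1* and *P2ry12* at 0 in Control. Of these markers, 6 of the 7 with 50 UMIs were higher in SC300, and the part of microglial RNA in other ratios was not tested beyond leaving the mixed barcodes out. *Ier3*, a stress-response gene in the same list of 15, had 73 and 168 UMIs, a ratio of 1.12 that was 0.39 without the mixed barcodes.

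Marker lists of other cell types were at differing levels in precursors. The astrocyte list summed to 674.7 CPM in Control and 706.7 CPM in SC300 precursors, against 15653 and 15283 CPM in astrocytes, with 8 of its 10 genes at 50 UMIs, 2 higher (*Aqp4*, with 67 and 144 UMIs, and *Gfap*, with 29 and 58) and 0 lower. The *Aqp4* ratio of 1.02 was -0.28 without the mixed barcodes. *Aldoc* was the most abundant gene of the list. The neuron list summed to 344.6 and 428.8 CPM, with *Stmn2* the most abundant at 174 and 306 UMIs, of which 65 were in 1 SC300 cell, and *Stmn2* was the 1 gene past the fold of the 6 with 50 UMIs. The *Stmn2* ratio of 0.73 was 0.38 without the mixed barcodes. The mural list summed to 20.4 and 79.5 CPM, the endothelial list to 16.3 and 20.1 CPM, the fibroblast list to 135.1 and 133.8 CPM and the list of ependymal cells and tanycytes to 7.25 and 23.1 CPM. The most abundant genes of these lists were *Tagln*, *Itm2a*, *Mgp* and *Dynlrb2*. In astrocytes the fibroblast list summed to 79.0 CPM in Control and 171.4 CPM in SC300. Without the mixed barcodes the mural list summed to 20.8 CPM in Control and 15.2 CPM in SC300, the microglia list to 101.6 and 94.7 CPM, the astrocyte list to 477.5 and 464.3 CPM and the neuron list to 347.3 and 375.6 CPM. *Cdh5*, *Notch3*, *Col1a1*, *Col1a2*, *Rax*, *Col23a1* and *Scn7a* had 0 UMIs in both libraries.

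RNA of haemoglobin and peptide genes, typical of red blood cells and neurons, differed between the libraries. Of 7 haemoglobin genes, 4 had 50 UMIs and all 4 were lower in SC300, with a median of -1.99. *LOC103694857*, a haemoglobin gene, had 1050 UMIs in 319 Control cells and 270 in 180 SC300 cells, and the 2 genes listed as *Hba-a2* had 452 and 91, and 215 and 60. The median precursor held 5 haemoglobin UMIs in Control and 1 in SC300, and the same medians were found in astrocytes and microglia. The highest count in 1 barcode was 15603 and 30383 UMIs in astrocytes and 15 and 7 in precursors. The summed haemoglobin level was 6572 CPM in Control and 9761 CPM in SC300 in astrocytes, 8435 and 7725 CPM in microglia, and 812.5 and 195.4 CPM in precursors. The part of such RNA in the other ratios was not tested. Of 15 genes for peptides and other neuronal products, 5 had 50 UMIs, 2 were higher and 1 lower. *Avp* had 62 and 21 UMIs, *Oxt* 50 and 124, *Pmch* 18 and 53, *Pomc* 29 and 23, and *Tac1* 122 and 139, with at most 8 UMIs in a cell. The *Oxt* ratio was 1.23 in precursors and 1.38 in all other kept barcodes.

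Sterol and clock genes had medians below 0. Of 20 genes of cholesterol synthesis, 14 had 50 UMIs, 0 were higher and 2 lower, with a median of -0.18. *Srebf2*, the factor that drives this pathway, had 238 and 168 UMIs in 158 and 132 cells, a log2 ratio of -0.59 (-0.88 to -0.30), -0.56 without the mixed barcodes, and -0.46 in all other kept barcodes. *Lss*, lanosterol synthase, had 36 and 14 UMIs. The enzymes *Hmgcs1*, *Idi1*, *Fdps*, *Sqle* and *Msmo1* had ratios of 0.20, 0.02, -0.10, -0.13 and -0.12. Of 18 clock genes, 12 had 50 UMIs, 0 were higher and 1, *Rora*, was lower, with a median of -0.22. *Per3* had 522 and 473 UMIs, *Dbp* 235 and 200, *Nr1d1* 94 and 76, *Nr1d2* 91 and 126, and *Tef* 114 and 137. The hour of tissue collection was not compared between the libraries.

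Some genes had another ratio of SC300 over Control in precursors than in all other kept barcodes. *Sfrp2*, a secreted Wnt inhibitor, had 335 UMIs in Control and 380 in SC300 precursors, a log2 ratio of 0.10 (-0.12 to 0.31), against -1.92 in all other kept barcodes and -2.56 (-2.88 to -2.25) in astrocytes. *Cpxm1*, a secreted carboxypeptidase-like protein, had 89 UMIs in 76 cells and 147 in 115 cells, a ratio of 0.64 (0.25 to 1.04), against -0.95 in all others and -1.37 in astrocytes. The astrocyte gate also held RNA of other cells. Its list of ependymal cells and tanycytes summed to 853.6 CPM in Control and 613.8 CPM in SC300. Its endothelial list summed to 924.5 and 1212 CPM. The part of such RNA in the astrocyte ratios was not tested. *Cdkn1c*, an inhibitor of the cell cycle, had 522 and 444 UMIs, a ratio of -0.32 (-0.50 to -0.13), against 0.88 in all others and 0.87 in mature oligodendrocytes. *Nptx2*, a synaptic pentraxin, had 266 and 244 UMIs (-0.21) against 0.95 in all others, and *Pnlip*, a lipase, 192 and 156 (-0.38) against 0.77. These differences between cell groups were not tested.

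The genes named for spread among precursors included early-response, myelin, division and mitochondrial genes. Spread was measured as the variance over the mean of thinned counts, which is 1 for counts that differ only by sampling. Over 3319 genes with a mean of at least 0.1 UMIs the median of the smaller of the 2 libraries' values was 0.975, and 39 genes were above 2 in both libraries, led by *AC134224.3* at 16.1 and 14.5. *Fos* had a value of 8.13 in Control and 9.35 in SC300, with up to 40 and 43 UMIs in a thinned cell. *Egr1* had 5.52 and 4.76, *Cd9*, a tetraspanin, 5.67 and 6.12, and *Apoe* 6.85 and 5.00. *Mbp* had 11.6 and 7.40, *Sirt2* 3.61 and 3.05, and *Cnp* 4.21 and 3.01. *Hmgb2*, a chromatin protein of dividing cells, had 7.51 and 4.22 and stood at 1940 CPM in the 20 dividing Control cells and 56.2 CPM in the Control cells called neither dividing nor committed. The mitochondrial genes *Mt-atp6*, *Mt-co3* and *Mt-co2* had 4.79 and 4.48, 4.63 and 4.28, and 4.54 and 3.86. *Olig1* was at 1.56 and 1.65 and *C1ql1* at 1.90 and 1.77. *Agt* (14.6 and 9.46), a gene of astrocytes, and *Sparc* (7.27 and 6.76) also ranked high, with up to 21 and 16 UMIs in 1 Control cell.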

How the data were processed

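The authors counted UMIs per gene and cell barcode with Cell Ranger (the submitters' processing notes name version 3.0.1) against the Ensembl rat transcriptome and deposited raw, unscaled counts: 52004789 UMIs for Control, 57013099 for SC300. Members, lists and the rule for named genes were chosen with earlier results of these data known.

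Gates required marker genes and allowed at most 1 gene of other cells, and precursors were left out of the other gates. UMIs were summed over cells and scaled to CPM. Intervals were exact (Poisson, Clopper-Pearson and, for ratios, conditional binomial). A count of 0 was set to 3 UMIs. Genes with at least 50 UMIs entered counts, and a fold of 1.5 counted as a difference. The genes named were the rule's genes, for each list the 5 with most UMIs and those past the fold with 100 UMIs and an interval off 0, the 15 highest and 15 lowest ratios, the 20 most raised over other barcodes, the most variable 20, the state markers, and the 10 whose ratio differed most from other barcodes in each direction. Other named genes were chosen after their values were seen. Of 510 list genes, 492 were in the files. Doublets were called with Scrublet (scanpy 1.11.5) and kept. It marked 2 of 342 and 4 of 330 precursors. Python 3.11.15, numpy 2.4.6, scipy 1.17.1 and pandas 2.3.3 were used. The ratio step was tested on simulated data. Alternatives changed the gate, the depth, the scaling and the minimum count. Leaving out mixed barcodes and taking *Bmp4* out of the committed call were chosen after seeing the data. Some genes are not reported here.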

Additional observations from a re-analysis of the deposited data

Results flagged for a closer look

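*Cpxm1* had a log2 ratio of 0.64 (0.25 to 1.04) in precursors and -0.95 in all other kept barcodes, the opposite direction, and this difference between cell groups was not tested. Outside the kept barcodes, 10 SC300 and 3 Control barcodes passed the marker rule but were over the mitochondrial limit, and they entered no comparison. Their *Pdgfra* level was 782.7 CPM in SC300 and 496.4 CPM in Control, with a median of 2691 and 2865 UMIs a barcode.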

How the results depend on the processing

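The ratios of the precursor, committed and dividing shares had counting intervals that held 0, and those of the committed and dividing shares did not keep 1 direction. The committed share had a log2 ratio of -0.06, but 0.12 with no excluded gene detected and 0.23 with *Bmp4* taken out and 1 rather than 2 genes required (-0.12 with 1 of all 4 genes). The dividing share had 0.12, but -0.15 with all 3 markers required and -0.14 with no excluded gene detected. With at most 10% mitochondrial UMIs the log2 ratio of the precursor share was -0.37 (139 and 79 cells), and after thinning that of the dividing share was 1.20. The number of genes past 1.5-fold higher in SC300 was 153 with no excluded gene detected, where 196 were lower. The numbers of genes past 1.5-fold higher in SC300 and of genes past 1.5-fold lower in SC300 were 72 and 75 with at least 100 UMIs, 580 and 440 with at least 20 UMIs, and 53 and 19 at 2-fold. Scaling by the median of ratios gave 238 and 158.

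Some named genes reversed their sign under other choices of barcodes, among them *Enpp6* of newly formed oligodendrocytes. With all 3 markers required, the log2 ratio was -1.18 for *Aif1*, -1.73 for *Anxa3*, -2.08 for *Enpp6*, -0.15 for *Ccl4*, -0.57 for *C1qb*, -1.96 for *C1qc*, -0.38 for *C1qa*, -0.96 for *Tmem176a* and -0.78 for *Rgs10*. With no excluded gene detected it was -0.78 for *Aif1*, -3.00 for *Anxa3*, -0.20 for *Tmem176b*, -0.49 for *Ccl4*, -0.91 for *C1qb*, -1.49 for *C1qc*, -1.08 for *C1qa*, -0.16 for *Cd83*, -1.23 for *Tmem176a* and -0.91 for *Rgs10*. *Aqp4* was at -0.59 and -1.27 with at most 20% and 10% mitochondrial UMIs, and *Tagln* at -2.06 without Scrublet doublets. Without the mixed barcodes it was -0.68 for *Aif1*, -1.64 for *Anxa3*, -0.42 for *Tmem176b*, -0.13 for *Ccl4*, -0.49 for *C1qb*, -2.12 for *C1qc*, -0.19 for *C1qa*, -0.28 for *Aqp4*, -2.01 for *Tagln*, -0.90 for *Tmem176a* and -0.63 for *Rgs10*. Of 52 named genes past 1.5-fold, 33 were still past it without the mixed barcodes and 42 with at most 10% mitochondrial UMIs. With all 3 markers required 36 of the 52 were still past it, and with no excluded gene detected 32 of 49. No paired analysis was possible because each group has 1 library.

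With 1 library of 3 pooled rats a group, the spread between rats, the capsule and the handling of a library cannot be told apart. At this depth a gene with 50 UMIs has a wide interval, and a count of 0 allows a level of up to 1.36 and 1.28 CPM (3 UMIs).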
